A study of Mus musculus with 8 samples.

Results

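Chromatin immunoprecipitation with sequencing (ChIP-seq) listed 12943 regions of acetylated histone H3 (H3ac) on chromosomes 1 to 19 and X of differentiating mouse embryonic stem cells on day 4. Of these, 3597 (27.8%) overlapped a day 2 H3ac peak by at least 1 bp and no day 6 peak, and they are described here as the regions of days 2 and 4 only. The cells were of the 129/Ola strain, plated on gelatin in serum-free N2B27 medium. H3ac was precipitated on days 2, 4 and 6 with an antibody against acetylated H3, and HDAC1 on day 2 with an antibody against its FLAG tag. There was 1 ChIP library with 1 input per target and day, so no replicate error exists, and all 95% intervals below cover counting error over regions or genes only. The labels give no sorting of the cells, and the population may hold several cell types. Gene-end peaks on days 2, 4 and 6 were listed for 18, 7 and 8 of 26 pluripotency genes, 11, 19 and 7 of 32 neural progenitor genes, and 3, 3 and 2 of 20 mesendoderm genes. The lists of these days held 17357, 12943 and 5549 peaks, and the daily shares over all genes are not given. These counts alone therefore do not show a change of cell type.

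Acetyl groups on the tail of histone H3 loosen its hold on DNA and serve as docking sites for bromodomain proteins, and they mark promoters and enhancers in use. At a promoter the acetylated nucleosomes sit on either side of a nucleosome-poor stretch over the start of transcription. HDAC1 is the catalytic subunit of several corepressor complexes that remove these groups, among them Sin3, NuRD and CoREST, and it is known to be recruited to active as well as silent genes. N2B27 lacks the serum and cytokine that hold embryonic stem cells in self-renewal, and many cells take a neural fate in it.

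The choice of regions used the 3 H3ac lists, so their number, scores and widths are a description. The absence of a day 6 peak does not show absence of acetylation. The day 6 list held 5549 peaks on these chromosomes against 17357 on day 2, and its peaks were wider (median 1898 bp against 591 bp on day 2 and 792 bp on day 4). Scores are the authors' own per-peak values with a floor of 50, on a scale that the sources do not give. They rank peaks within a list here. Day 2 and day 4 scores and ranks of a region are printed side by side, and the Spearman rho of the scores is given as a description. The lists differ in length and the scale is unknown, so no change between days is read from these values.

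Many of these regions lay over gene starts rich in the bases C and G, and 6 such starts are shown because their genes stand for the results below. Cdc20 and Plk1 drive mitosis, Uhrf1 maintains DNA methylation, Nup214 encodes a nuclear pore protein, Yif1a encodes a Golgi membrane protein, and Ccdc77 shares with Kdm5a the highest-scoring region. Sequences are from RefSeq, build GRCm38.p6, each 300 bases long and read in the gene's direction from 250 bases before the start. Capitals mark CCAAT on either strand, the letters bound by the factor NF-Y, which were more frequent here than at starts acetylated on all 3 days.
Cdc20 (chr4:118437294-118437593, minus strand): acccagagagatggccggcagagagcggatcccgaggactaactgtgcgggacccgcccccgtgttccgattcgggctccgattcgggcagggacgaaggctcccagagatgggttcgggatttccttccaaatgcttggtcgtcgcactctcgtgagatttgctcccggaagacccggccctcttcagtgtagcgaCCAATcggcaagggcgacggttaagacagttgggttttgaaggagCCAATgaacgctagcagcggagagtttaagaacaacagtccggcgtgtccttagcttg
Plk1 (chr7:122159185-122159484, plus strand): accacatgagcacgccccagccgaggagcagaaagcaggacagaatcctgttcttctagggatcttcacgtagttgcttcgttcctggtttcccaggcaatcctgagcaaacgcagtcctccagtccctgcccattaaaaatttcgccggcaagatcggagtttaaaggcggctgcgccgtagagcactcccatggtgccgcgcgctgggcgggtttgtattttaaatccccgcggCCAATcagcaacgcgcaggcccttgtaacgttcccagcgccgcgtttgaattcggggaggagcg
Uhrf1 (chr17:56304063-56304362, plus strand): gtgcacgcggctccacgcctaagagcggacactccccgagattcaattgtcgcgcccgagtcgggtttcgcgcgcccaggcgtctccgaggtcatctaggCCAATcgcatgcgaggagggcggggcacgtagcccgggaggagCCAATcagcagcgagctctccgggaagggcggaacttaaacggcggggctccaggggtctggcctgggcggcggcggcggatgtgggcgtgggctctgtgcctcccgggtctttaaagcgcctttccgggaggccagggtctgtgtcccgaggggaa
Nup214 (chr2:31974200-31974499, plus strand): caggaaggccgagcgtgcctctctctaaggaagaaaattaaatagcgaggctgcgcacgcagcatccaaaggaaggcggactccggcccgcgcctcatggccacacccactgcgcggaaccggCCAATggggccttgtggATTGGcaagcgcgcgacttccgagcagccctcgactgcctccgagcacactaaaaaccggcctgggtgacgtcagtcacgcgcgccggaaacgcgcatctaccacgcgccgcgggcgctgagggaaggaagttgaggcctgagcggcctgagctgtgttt
Yif1a (chr19:5088288-5088587, plus strand): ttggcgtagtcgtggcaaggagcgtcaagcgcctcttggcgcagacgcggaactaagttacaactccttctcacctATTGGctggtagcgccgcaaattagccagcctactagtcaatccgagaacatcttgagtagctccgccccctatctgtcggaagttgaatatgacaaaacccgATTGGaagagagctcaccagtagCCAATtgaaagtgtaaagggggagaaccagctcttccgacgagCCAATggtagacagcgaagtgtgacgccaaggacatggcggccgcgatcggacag
Ccdc77 (chr6:120364320-120364619, minus strand): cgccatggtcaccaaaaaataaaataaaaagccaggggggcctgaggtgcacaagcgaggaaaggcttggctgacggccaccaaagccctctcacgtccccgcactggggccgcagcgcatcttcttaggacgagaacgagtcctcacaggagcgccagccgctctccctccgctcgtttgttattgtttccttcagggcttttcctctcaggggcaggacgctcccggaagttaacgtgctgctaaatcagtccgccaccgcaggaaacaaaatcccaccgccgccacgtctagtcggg
The start windows shown for Cdc20 and Nup214 held CCAAT letters 2 times each, that of Plk1 held them 1 time, that of Uhrf1 2 times, that of Yif1a 4 times and that of Ccdc77 0 times. Of all windows under regions of days 2 and 4 only, 43.3% held these letters, so the 6 shown are not typical in this respect. All 6 windows lay wholly inside a region of days 2 and 4 only. HDAC1 peaks overlapped the regions at Uhrf1, Nup214, Yif1a and Ccdc77 and not those at Cdc20 and Plk1.

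These regions were mostly at genes. A gene end here means the first or last base of a protein-coding gene, and 2640 midpoints (73.4%, Wilson interval 71.9 to 74.8%) were no more than 1 kb from such a base, against 60.0% of all day 4 regions. A further 744 (20.7%) lay elsewhere within a gene, called gene body, and 213 (5.92%) outside genes. A gene-body region can still lie near an annotated start inside the gene, as at Prom1, where the midpoint was 825 bp from one. Of the 4670 regions present on all 3 days 71.5% were at a gene end, 25.2% in a gene body and 3.28% outside. Of the 3585 regions of day 4 only, 33.1% were at gene ends and 23.2% outside genes. The gene-end share was 1.87 points higher than in regions of all 3 days (Newcombe interval -0.0715 to 3.81), which is within counting error. With the higher-scoring 50% of each list it was 79.1% against 69.8% (9.32 points, 6.81 to 11.8). This rule cut the day 6 list too, so its regions can overlap a day 6 peak of lower score. When each list was held to the same number of its best peaks the gene-end share was 82.2% against 72.4% (9.88 points, 6.98 to 12.7). With no day 6 peak within 1 kb the difference was 2.30 points (0.338 to 4.24). Weighted over quintiles of day 4 score it was 1.01 points (-1.02 to 3.03), within counting error. With a day 2 overlap of at least 50% of the day 4 peak it was 1.29 points (-0.792 to 3.36), also within counting error. Against regions of day 4 only, the share was 40.3 points higher than in regions of day 4 only (38.2 to 42.4), and 19.1 points higher (15.7 to 22.5) when both were weighted over quintiles of day 4 score. It was 11.7 points (8.69 to 14.8) with the higher-scoring 50% of each list and 10.2 points (6.48 to 13.9) with lists of the same number.

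**Figure D1:**
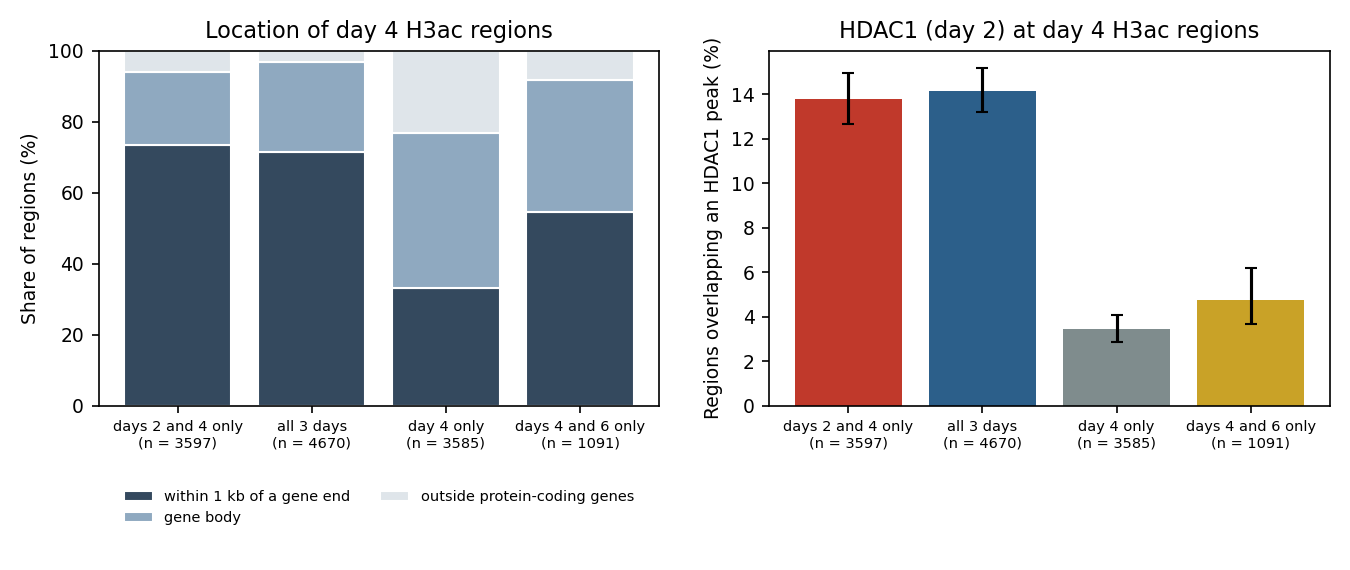
Left, percent of day 4 H3ac regions by place (gene end, gene body, outside genes), for regions grouped by the other days on which they were listed. Right, share overlapping a day 2 HDAC1 peak, with 95% Wilson intervals for counting error. Regions of days 2 and 4 only stand beside those of all 3 days in both panels (73.4% and 71.5% at gene ends), and regions of day 4 only are lower (33.1%).

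The regions sat on the transcribed side of gene starts. Annotated starts were at hand for all chromosomes but 18, and there 2532 of 3509 regions (72.2%) had their midpoint within 1 kb of a start. The median midpoint was 346 bp into the gene, and 78.6% (77.0 to 80.2%) lay downstream of the start, close to the 77.1% of regions of all 3 days (interval of the difference -0.670 to 3.64 points). The start base itself was covered in 56.6% of them, 8.20 points (5.60 to 10.8) more than the 48.4% in regions of all 3 days, whose midpoint lay at a median of 415 bp. Starts on both strands within 1 kb, as at divergent gene pairs, were found at 12.3% of these regions, against 15.3% in regions of all 3 days (-3.01 points, -4.79 to -1.21) and 5.13% in regions of day 4 only (7.19 points, 5.24 to 8.98). Npat, which acts in histone gene transcription, and Atm, the DNA damage kinase, are a divergent pair with a region on either side of their shared promoter, the stronger with score 598.19 (rank 191) at chr9:53536864-53538743.

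HDAC1 was found closer to the start than H3ac. Of the 509 HDAC1 peaks that overlapped these regions, 375 had their midpoint within 1 kb of a start, at a median of 128 bp downstream (quartiles 5 and 336 bp), where the 367 H3ac regions at starts with HDAC1 were centred at 356 bp. Their median width was 355 bp, against 311 bp for all HDAC1 peaks. Coverage by HDAC1 peaks was highest 150 bp into the gene (57.1% of them), and coverage by the H3ac regions at 350 bp (77.8%).

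**Figure D2:**
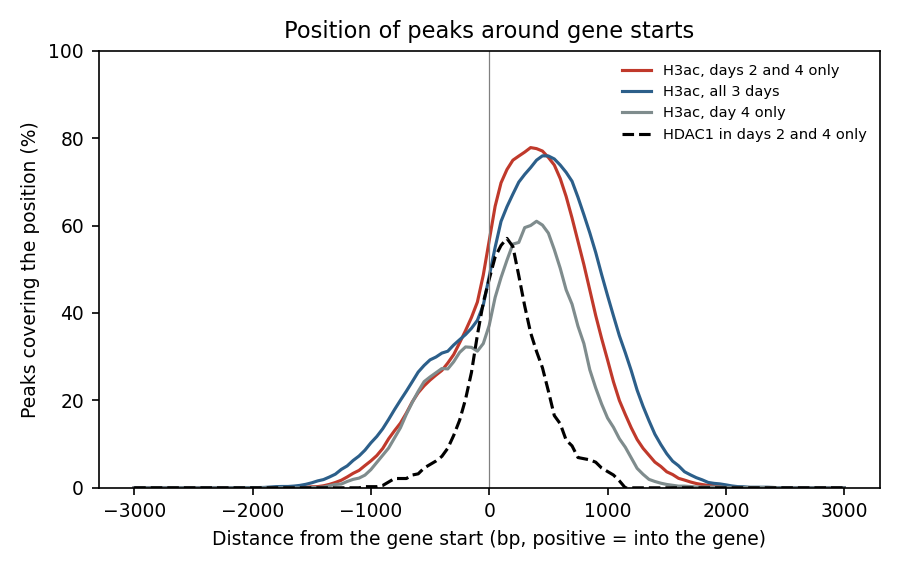
Percent of peaks (y axis) that covered each position at a given distance from the nearest gene start (x axis, bp, positive into the gene), for peaks centred within 1 kb of a start. The curve of the regions of days 2 and 4 only peaks 350 bp into the gene, that of all 3 days at 450 bp, and that of the HDAC1 peaks inside regions of days 2 and 4 only at 150 bp.

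HDAC1, measured on day 2 and not used to choose the regions, overlapped 495 of them (13.8%, 12.7 to 14.9%), against 10.3% of all day 4 regions. The share was 14.2% in regions of all 3 days and 3.43% in regions of day 4 only. The difference from regions of all 3 days was -0.393 points (-1.89 to 1.12), within counting error. It was 1.83 points (0.352 to 3.31) in favour of the regions of days 2 and 4 only when weighted over quintiles of day 4 score. The difference from regions of day 4 only was 10.3 points (9.07 to 11.6), and 5.91 points (3.46 to 8.35) after the same weighting. Widths differed between the groups as well, with medians of 866, 1003 and 568 bp, and weighting by width gave 1.24 points (-0.217 to 2.70) and 6.63 points.

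By location the shares differed. At gene ends HDAC1 overlapped 15.5% of the regions (14.1 to 16.9%). The share was 9.14% in gene bodies (7.27 to 11.4%) and 8.92% outside genes (5.78 to 13.5%). Regions of all 3 days had 14.6%, 13.2% and 11.8%, and in gene bodies the difference of the regions of days 2 and 4 only from them was -4.03 points (-6.80 to -1.11). Regions of day 4 only had 7.84%, 1.28% and 1.20%. Across quintiles of day 4 score the share went from 6.21% in the lowest to 21.5% in the highest, where regions of all 3 days had 4.90% and 19.2%.

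**Figure D3:**
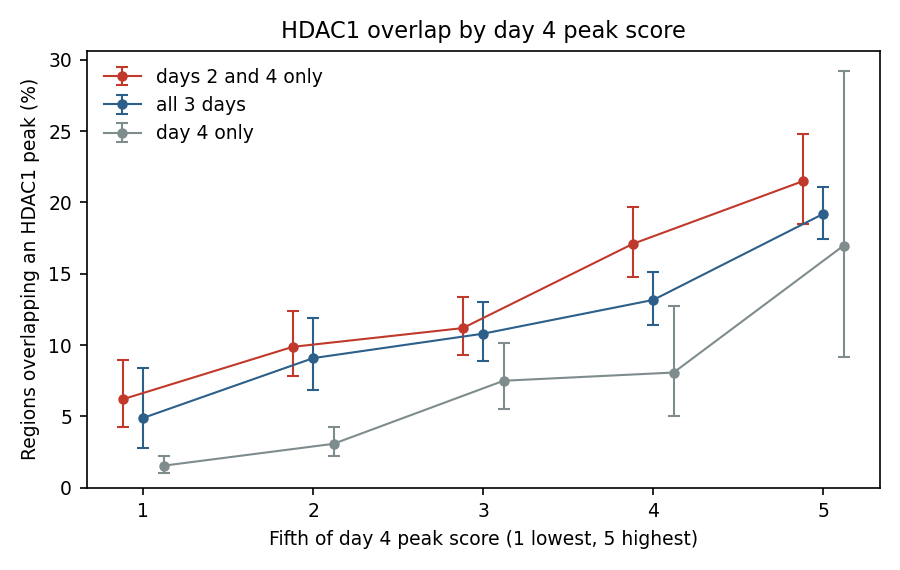
Share of regions overlapping an HDAC1 peak (y axis, percent, with 95% Wilson intervals) by quintile of day 4 peak score (x axis, 1 lowest). Regions of days 2 and 4 only go from 6.21% to 21.5%, regions of all 3 days from 4.90% to 19.2%, and regions of day 4 only start at 1.55%.

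The 495 regions with HDAC1 and the 3102 without it differed in place, strength and width. With HDAC1, the median score was 144.73 on day 4 and 150.53 for the best day 2 peak, and 82.4% were at gene ends. Without it, the medians were 110.09 and 115.08 (day 2) and 72.0% were at gene ends. Median widths were 998 bp with HDAC1 and 845 bp without it. The HDAC1 share went from 6.78% in the lowest quintile of day 4 width to 20.9% in the highest. The distance to the nearest day 6 peak was similar, with medians of 51894 and 58195 bp. The HDAC1 peaks in these regions had a median score of 67.87, against 65.34 for all 5282 HDAC1 peaks.

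Among the strongest HDAC1 peaks in such regions was that at Uhrf1, with HDAC1 score 296.25 (rank 169) and H3ac scores of 627.28 (rank 183) on day 2 and 386.41 (rank 686) on day 4. The nearest day 6 peak to the Uhrf1 region was 261280 bp away. Hmgcs1, the synthase at the head of cholesterol synthesis, had HDAC1 score 263.24 (rank 181) over H3ac peaks of 97.50 (rank 6873) on day 2 and 85.50 (rank 7536) on day 4. Yif1a had 264.72, the divergent genes Ighmbp2 and Mrpl21 had 261.09, Pex13, needed for protein import into peroxisomes, had 211.06, and Gnptg with Tsr3 had 195.72. Calu, a calcium-binding protein of the secretory pathway, had 2 regions under 1 HDAC1 peak of score 210.04. A further peak of score 255.93 lay in the body of Pcmt1, a protein repair methyltransferase gene.

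In strength the regions stood between those of all 3 days and those of day 4 only. The median day 4 score was 114.61, against 168.07 and 60.32. They made up 16.2%, 26.2%, 35.5%, 35.7% and 25.3% of day 4 regions from the lowest to the highest quintile of score. Their widths ran from 303 to 3338 bp, and together they covered 3.46 Mb. On day 2 they met 3772 peaks, 21.7% of that list, whose median score was 109.86 against 80.19 for the whole list. Most regions (3265, 90.8%) met a single day 2 peak, 324 met 2 and 8 met 3 or more. In 2936 regions a day 2 peak covered at least 50% of the day 4 region. Across the regions, day 2 and day 4 scores had a Spearman rho of 0.41, as a description over regions that share 2 libraries.

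The rule removed every region that overlapped a day 6 peak. The median distance of the others to one was 56894 bp, and 232 regions (6.45%) lay within 1 kb, 584 (16.2%) within 10 kb. Of the 3585 regions of day 4 only, 3443 had no day 6 peak within 1 kb and 3131 none within 10 kb. Regions of days 2 and 4 only were thus more often near one than regions of day 4 only. Just inside the rule were the regions at Sec16a, 9 bp from a day 6 peak, at Ngdn, 13 bp, and 1 far from genes on chromosome 17, 20 bp. Just outside were the regions at Tgif2 and Ppp1cb, which met a day 6 peak by 18 and 23 bp. Of the 3113 genes with a region of days 2 and 4 only within 1 kb of an end, 301 (9.67%) also had a day 6 peak within 1 kb of an end.

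The highest day 4 scores at genes were as follows. Kdm5a, a demethylase of histone H3 lysine 4, and its neighbour Ccdc77 had the highest, 1174.49 (rank 20), in a region at chr6:120362984-120365792 whose day 2 peak had score 218.11 (rank 2210) and which met 2 HDAC1 peaks, the stronger of score 72.41. Naca, a ribosome-associated chaperone subunit, had scores of 914.76 (rank 56) on day 2 and 797.34 (rank 66) on day 4. Rpl8, a ribosomal protein gene, had 767.90 (rank 104) and 723.11 (rank 93). Eef2, the translation elongation factor, had 816.35 and 655.79, and Pa2g4, a growth regulator, had 734.41 and 605.35. None of these 4 regions met an HDAC1 peak, which 13.8% of all regions of days 2 and 4 only did. Mycl, a Myc family gene, had score 713.93 (rank 100) on day 4 and 65.97 (rank 11235) on day 2, and Nuak1, a kinase gene, 677.27 (rank 118) and 104.82 (rank 6278). Phf12, a Sin3-associated protein gene, had 669.16 on day 4 and 278.10 on day 2, and Ppp1r15b, a regulator of eIF2 phosphatase, 735.80 and 456.62.

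The highest day 2 scores at genes were partly at other places. Rarg, the retinoic acid receptor gamma gene, had a broad day 2 peak of score 1221.96 (rank 16), and 2 day 4 regions of score 52.49 and 70.99 lay under it. Frs3, an adaptor of FGF receptors, had 1089.65 (rank 25) and 233.30 (rank 2084). Tma7, a translation-related gene, and Ccdc51 shared 1061.07 (rank 29) and 319.84 (rank 1076). Eif4b, an initiation factor, had 992.11 and 524.88, and Hsp90ab1, the cytosolic HSP90 chaperone, 867.58 and 398.40. None of these 5 places had an HDAC1 peak in the region, against 13.8% of all regions of days 2 and 4 only. Among the widest regions were those at Sema5b, a guidance cue for axons (3244 bp), and outside genes near Skida1 (3238 bp). The Sema5b region had scores of 294.94 on day 2 and 346.17 on day 4 and met no HDAC1 peak.

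Regions outside genes included very strong day 2 peaks. The region at chr2:98666109-98667462, 1035113 bp from the nearest protein-coding gene end, had the highest day 2 score of all, 3100, and a day 4 score of 729.80. The highest score of the HDAC1 list was also 3100, and whether this value is a ceiling of the scale is not stated. A neighbour at chr2:98661810-98663118 had 1643.96 (rank 4) and 151.12, and a region on chromosome 9, 29385 bp from Rpusd4, had 1432.63 (rank 6) and 227.92. The stretch of chromosome 2 is known for satellite repeats on which reads gather in many ChIP-seq data sets, and no HDAC1 peak met these 3 regions. The region near Skida1 at chr2:18026194-18029431, 16275 bp from a gene end, had scores of 688.76 and 757.24 and met 2 HDAC1 peaks, the stronger of score 174.16 (rank 269). The region near Sec31a, 12088 bp from a gene end, had 657.41 and 732.40 and no HDAC1 peak.

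The gene with most regions in it or within 10 kb was Kdm6b, a demethylase of histone H3 lysine 27, at chr11:69398508-69420367. It had 7 such regions with scores from 55.91 to 435.48, beside 1 region of day 4 only, and 8 day 2 peaks, 3 HDAC1 peaks and 0 day 6 peaks. Its neighbour Dnah2 had 5. Next came 3 overlapping gene models of the clustered protocadherin locus on chromosome 18, Gm37013, Gm38666 and Gm38667, with the same 6 regions.

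At gene level, 3113 of 21627 protein-coding genes (14.4%) had a region of days 2 and 4 only within 1 kb of an end, and 653 regions reached 2 or more genes. An HDAC1 gene-end peak was listed for 670 of these genes (21.5%), against 9.51% of all protein-coding genes, 20.8% of genes with a region of all 3 days and 14.3% of genes with a region of day 4 only. The counts in gene lists that follow are read beside the 14.4%, with no test. Counts of HDAC1 gene-end peaks within a list are read beside the 21.5%. A region of all 3 days was within 1 kb of an end of 3900 genes (18.0%), and a gene can have both kinds of region. Such a region was at 18 of 38 genes of class I HDAC complexes, 12 of 32 autophagy genes and 6 of 24 cholesterol genes. It was also at 15 of 31 FGF and ERK, 10 of 30 Wnt, 11 of 25 Nodal and TGF-beta and 14 of 31 Polycomb genes. For regions of days 2 and 4 only, the 14.4% lies inside the intervals of these FGF, Wnt, Nodal and Polycomb lists. It also lies inside those of the primed epiblast, neural progenitor, nuclear pore, peroxisome, DNA methylation, cytosolic ribosome, pluripotency, mesendoderm and adult tissue lists.

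Genes of cell division and genome upkeep were frequent, and for the most part also among genes with a region of all 3 days (18.0% of all genes). A region of all 3 days was at 21 of 43 kinetochore and spindle genes, 28 of 59 DNA repair genes and 27 of 46 DNA replication genes. It was at 9 of 55 genes of the cilium and centrosome. Of 43 kinetochore and spindle genes, 41 had a day 2, 42 a day 4 and 22 a day 6 gene-end peak. The daily shares over all genes are not given, so these counts do not show a loss particular to the list. Of the 43 genes, 20 (46.5%) had a region of days 2 and 4 only. They were led by Cdc20, an activator of the anaphase-promoting complex (scores 280.76 and 603.93 on days 2 and 4), Plk1, a mitotic kinase (581.93 and 518.36), Cenpo (357.18 and 285.35, with an HDAC1 peak of 122.76) and Pmf1 (214.84 and 275.46). Of 59 DNA repair genes 20 (33.9%) had a region of days 2 and 4 only, among them Atm, Apex1, an endonuclease of base excision repair (427.85 and 378.27), Rad51b and Xrcc1. None of the 20 had a day 6 gene-end peak. Only 9.67% of all genes with such a region had one, a low share that the choice of regions favours. Of 46 DNA replication genes 14 (30.4%) had a region of days 2 and 4 only, led by Cdc7, a kinase that fires origins (189.06 and 359.41), Pole3, Rfc5 and Pola2. Pole3, a subunit of polymerase epsilon, also met an HDAC1 peak of score 101.61. Of 55 genes of the cilium and centrosome 21 (38.2%) had one, and HDAC1 gene-end peaks were listed for 1 of them. Plk4, the kinase of centriole duplication, had scores of 135.34 and 299.62, and Cep57, a centrosomal protein gene, had 173.39 and 436.57 with a day 6 peak 286 bp away.

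**Figure D4:**
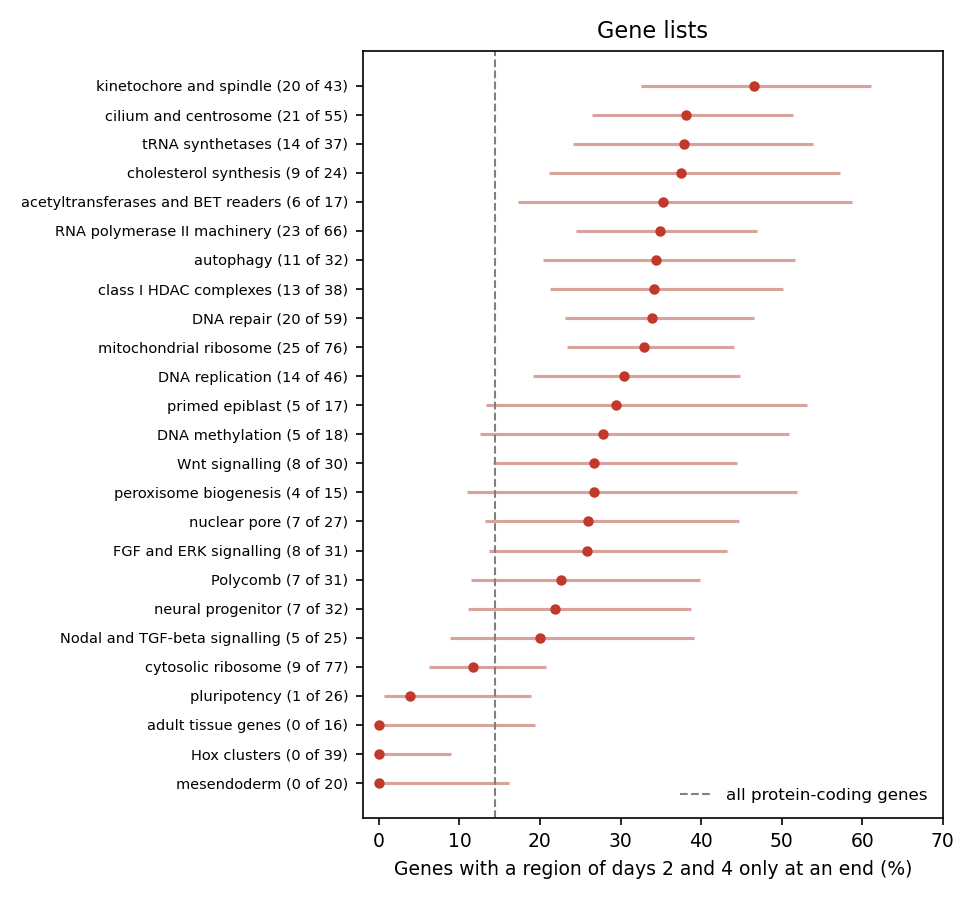
Percent of the genes of each list with a region of days 2 and 4 only within 1 kb of an end (x axis, points, with 95% Wilson intervals), with the numbers in brackets. The dashed line is the 14.4% of all protein-coding genes. Kinetochore and spindle genes are highest (20 of 43), and the mesendoderm and Hox lists hold 0.

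Genes of transcription and protein production were also common, except for those of the cytosolic ribosome. Of 66 genes of the RNA polymerase II machinery 23 (34.8%) had a region, led by Med20, a Mediator subunit (216.39 and 378.44), and the polymerase subunits Polr2e (275.32 and 330.71) and Polr2i (311.60 and 283.28), both of which met an HDAC1 peak. Of 76 mitochondrial ribosomal protein genes 25 (32.9%) had one, with Mrpl43, Mrpl37, Mrpl52 and Mrpl17 the strongest, and 7 of the 25 had an HDAC1 gene-end peak. Of 37 aminoacyl-tRNA synthetase genes 14 (37.8%) had one. Hars and Hars2, the cytosolic and mitochondrial histidine enzymes, share a divergent promoter and a region of scores 169.09 and 340.97 with an HDAC1 peak of 69.66. Of 77 cytosolic ribosomal protein genes 71 had a day 6 gene-end peak, with no daily share over all genes to read beside it. A region of days 2 and 4 only was at 9 of the 77 (11.7%). Beside Rpl8, these included Rps21 (428.70 and 568.37), Rps15 (786.52 and 456.40) and Rpl34 (601.18 and 271.06). Of 27 nuclear pore genes 7 (25.9%) had one, and 4 of the 7 had an HDAC1 gene-end peak, among them Nup214 (365.18 and 349.71, HDAC1 139.50). Regions of all 3 days were also at 35 of 66 RNA polymerase II genes, 38 of 76 mitochondrial ribosomal protein genes and 21 of 37 tRNA synthetase genes. They were at 68 of 77 cytosolic ribosomal protein genes and 17 of 27 nuclear pore genes, so these lists are not particular to days 2 and 4 only.

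Of 24 genes of cholesterol synthesis and uptake 9 (37.5%) had a region of days 2 and 4 only. None of the 9 had a day 6 gene-end peak, beside 9.67% of all genes with such a region. Among the 9 were the enzyme genes Fdps, Tm7sf2, Lss, Mvd, Mvk, Hmgcs1 and Dhcr7. HDAC1 gene-end peaks were listed for 4 of the 9, with Fdps at score 101.74 and Lss at 111.05. The H3ac scores of Fdps were 163.15 on day 2 and 245.41 on day 4. Of 32 autophagy genes 11 (34.4%) had one, led by Becn1, a subunit of the lipid kinase complex that starts the autophagosome (71.00 and 281.35), and 2 of the 11 had an HDAC1 gene-end peak. Of 15 peroxisome biogenesis genes 4 had one, namely Pex14, Pex13, Pex10 and Pex16.

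Chromatin regulators were represented across activities. Of 38 genes of class I HDAC complexes 13 (34.2%) had a region, and none of the 13 had an HDAC1 gene-end peak. That share was 21.5% over all genes with such a region, and 13 genes are few for a comparison. Mta2 (266.77 and 386.03) and Mta1 (78.85 and 298.22), subunits of the NuRD complex, were the strongest, and others were Sap130, Brms1, Hmg20b, Sap30l, Rcor1, Hdac3, Brms1l, Mbd3, Sin3b and Gatad2a, with day 4 scores from 182.81 down to 54.40. The region beside Hdac3 met an HDAC1 peak of score 118.43 that lay over 1 kb from the gene. Mta2, Sap130, Rcor1 and Gatad2a had a day 6 gene-end peak as well, 219 bp from the region at Sap130. Of 17 acetyltransferases and BET readers 6 had one, among them Brpf1 (551.90 and 516.40), Kat7, Kat6a, Kat2a and Kat8. Of 31 Polycomb genes 7 had one, led by Pcgf3 (377.66 and 404.82). Of 18 DNA methylation genes 5 had one, none with a day 6 gene-end peak, beside 9.67% of all genes with such a region. Hells, a remodeller needed for DNA methylation, had 827.43 (rank 84) and 396.72 (rank 647), and Uhrf1, Dnmt3b, Mbd3 and Mbd4 were the others.

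Of 26 pluripotency genes 1 (3.85%, 0.682 to 18.9%) had a region, an interval that holds the 14.4% of all genes. It was L1td1, which encodes an RNA-binding protein of stem cells, with scores of 576.23 (rank 221) on day 2 and 71.59 (rank 8732) on day 4. Of 17 genes of the primed epiblast, the later pluripotent state, 5 had a region. Dnmt3b, the de novo DNA methyltransferase (385.85 and 155.62), Pou3f1, a POU factor (433.48 and 101.32), and Lef1, a Wnt effector (546.11 and 93.37), had day 2 ranks of 654, 491 and 271 and day 4 ranks of 4037, 6497 and 7001. HDAC1 peaks met the regions of Dnmt3b (81.21) and Pou3f1 (55.31). Zic2 and Sox11 also had a day 6 gene-end peak, 117 and 967 bp from their regions.

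Of 32 neural progenitor genes 7 (21.9%) had a region. Prom1, a membrane protein of progenitors, had 141.93 (rank 4350) on day 2 and 620.62 (rank 163) on day 4. Notch1, the receptor that holds progenitors undifferentiated, had 110.97 (rank 5877) and 315.04 (rank 1107), and its effector Hes1 had 176.04 (rank 3169) and 292.24 (rank 1300). Gbx2, a factor of the border of midbrain and hindbrain, had 105.59 and 163.75 with an HDAC1 peak of 61.32. Nes, which encodes nestin, had 72.95 and 120.24, and Pou3f2 had 60.79 and 120.16. Dll1, a Notch ligand, had 125.96 on day 2 and 52.74 on day 4, near the floor, with a day 6 peak 111 bp away. No gene of the mesendoderm list (0 of 20, upper bound 16.1%), the Hox clusters (0 of 39, 8.97%) or the adult tissue list (0 of 16, 19.4%) had a region of this kind.

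Among the signalling pathways, 8 of 31 FGF and ERK genes, 8 of 30 Wnt genes and 5 of 25 Nodal and TGF-beta genes had a region. The intervals were 13.7 to 43.2%, 14.2 to 44.4% and 8.86 to 39.1%, and all hold the 14.4% of all genes. In the FGF and ERK list, the kinase gene Map2k1 (117.13 and 288.35) met an HDAC1 peak of 63.78. The adaptor Grb2 (74.40 and 176.29) had a day 6 peak 286 bp away. Hras and Sos1, a GTPase and its exchange factor, followed. In the Wnt list the transcription factor Tcf7l1 (248.40 and 306.01), the signal transducer Dvl3 (124.75 and 304.59), the receptor Fzd8 (207.29 and 291.82) and the coreceptor Lrp5 (66.61 and 179.90) were the strongest. None of the 8 Wnt genes had an HDAC1 gene-end peak or a day 6 gene-end peak. In the third list Ski, a corepressor of Smads (60.49 and 264.66), and Smad3, an effector (66.80 and 158.72), had low day 2 scores, while Smurf2 and Acvr1b had a day 6 peak 323 and 166 bp from the region.

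At the level of sequence, 1721 starts of 1539 genes lay under a region of days 2 and 4 only. Their 300-base windows had a median of 60.7% G and C, the same as the 1944 starts under regions of all 3 days. The ratio of observed to expected CpG was lower, with a median of 0.776 (quartiles 0.647 and 0.895) against 0.845 (0.715 and 0.963). At starts under regions of day 4 only it was 0.653, at the 153 starts under regions of days 4 and 6 only 0.774, and over all 21044 starts 0.574. The CCAAT letters, on either strand, were found in 43.3% of the windows, 35.9% at all 3 days, 32.4% at day 4 only, 40.5% (33.1 to 48.4%) at days 4 and 6 only and 38.5% over all starts. The difference from all 3 days was 7.43 points (4.26 to 10.6), and 7.46 points (4.10 to 10.8) with 1 start per gene.

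The other letters searched, on both strands and in the same windows, were the GC box GGGCGG, the cAMP response element TGACGTCA, the 10-letter NRF1 site, the ETS site CCGGAAG, the E-box CACGTG, the TATA box TATAAA, an 11-letter YY1 site and the octamer ATGCAAAT. They can overlap each other. Of these 8, only the GC box differed from starts of all 3 days beyond counting error, at 64.7% against 61.0% (3.77 points, 0.637 to 6.89), with 46.7% over all starts. ETS letters were in 28.1% of the windows, 26.9% at all 3 days, 16.0% at day 4 only and 11.7% over all starts. TATA letters were in 4.94%, against 12.7% over all starts. Over all starts the cAMP response element was in 2.26%, NRF1 in 1.34%, the E-box in 7.91%, YY1 in 0.893% and the octamer in 1.68%, and under regions of days 2 and 4 only in 4.01%, 3.02%, 10.1%, 2.27% and 1.34%. In all, 36 differences were computed, over 9 motifs, 2 other groups and both ways of counting starts, and their intervals are not adjusted for that number. A match describes the letters and not binding.

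The share of day 4 regions that were of days 2 and 4 only varied between chromosomes. It was highest on chromosome 17 (218 of 638, 34.2%, 30.6 to 37.9%) and chromosome 19 (32.9%, 28.7 to 37.5%) and lowest on the X chromosome (37 of 194, 19.1%, 14.2 to 25.2%) and chromosome 13 (21.7%, 18.4 to 25.3%). Of regions listed on days 2 and 4, those without a day 6 peak were 30.1% on the X chromosome and between 35.1% and 49.1% on the others. The X chromosome had 24 HDAC1 peaks in all, and 0 of its 37 regions met an HDAC1 peak, which allows a share of up to 8.11%.

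**Figure D5:**
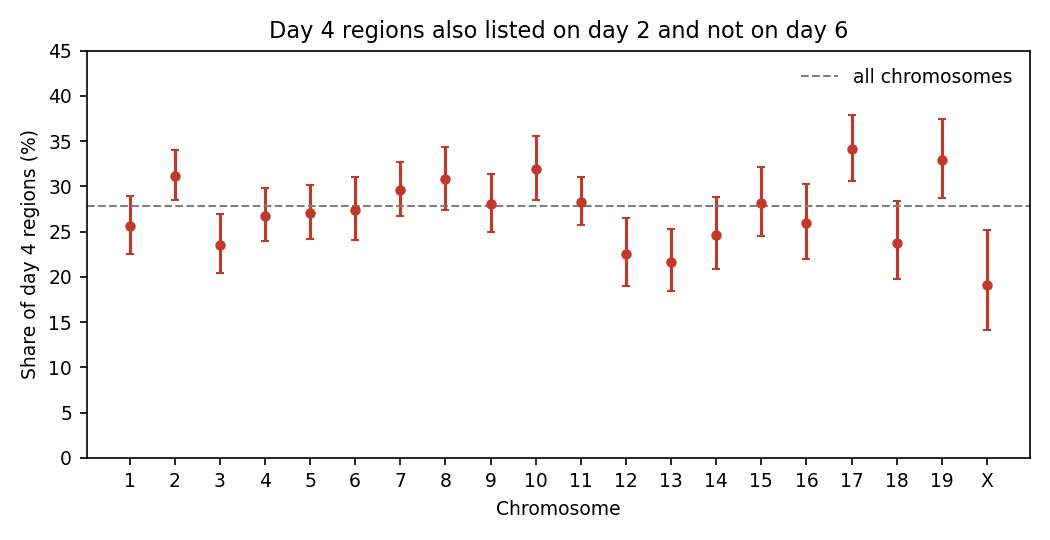
Percent of the day 4 H3ac regions of each chromosome (x axis) that overlapped a day 2 and no day 6 peak (y axis, points, with 95% Wilson intervals for counting error). The dashed line is the 27.8% over all chromosomes. Chromosome 17 is highest (34.2%) and the X chromosome lowest (19.1%).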

How the data were processed

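Per the submitters' processing notes, alignment used Bowtie 0.12.8 and build mm10. Peak names begin with MACS, and for the caller the version, cut-off and use of inputs were not stated in any label or header. The authors deposited 1 peak list per ChIP library with a score per peak. Scores served to rank peaks within a list and, as a description, for a Spearman rho between days. Read depth is unknown here, and a list with fewer reads can hold fewer peaks.

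Coordinates were made 1-based. Regions were day 4 peaks on chromosomes 1 to 19 and X that overlapped a day 2 peak by 1 bp or more and no day 6 peak, and 11, 2, 4 and 4 peaks of the day 2, day 4, day 6 and HDAC1 lists lay on other sequences. Genes (21627 protein-coding) came from RefSeq GRCm38.p6, which shares mm10 coordinates, and starts from its promoter table, which held 17273 of these genes and none on chromosome 18. Gene end means within 1 kb of either end: of the midpoint for shares of regions, and of the nearest edge for counts of genes. Shares have 95% Wilson and differences Newcombe intervals, and weighted differences normal ones. The limits of 8.11% for the X chromosome and 21.4% for the microRNA regions are not Wilson limits but 3 counts over the number of regions. No p-value was computed, since regions are not replicates. All 897 gene list entries matched. Members, the 25 lists and comparisons were chosen with earlier results of these data known. Named genes are the highest by day 4, day 2 or HDAC1 score, width, number of regions and list membership, and those nearest the rule's limits. The motifs and start features were chosen after seeing the data. Code was tested on simulated data (Python 3.11.15, pandas 2.3.3, numpy 2.4.6). Some genes that these rules name are not reported here.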

Additional observations from a re-analysis of the deposited data

How the results depend on the processing

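The number of regions (3597) stayed within 1.5 times under every rule tried but equal numbers of top-scoring peaks, which left 1143. That rule gave a gene-end share of 82.2% and an HDAC1 share of 19.9%, against 72.4% and 18.3% in regions of all 3 days. The higher-scoring 50% of each list gave 2839 regions, 79.1% at gene ends and 17.9% with HDAC1. Some of these can overlap a day 6 peak of the lower 50%, so they are not all among the 3597. A day 2 overlap of at least 50% gave 2936 regions and 75.4% at gene ends. With no day 6 peak within 1, 2.5, 5 or 10 kb, 3365, 3314, 3207 and 3013 regions were left. The gene-end share was 44.9% with 0.5 kb, 85.3% with 2.5 kb, 79.7% when any base counted, 77.9% with all annotated genes, and 72.2% for starts. The HDAC1 share was 12.1% with at least 50% of the HDAC1 peak, 18.5% within 1 kb, 7.90% with the higher-scoring 50% of HDAC1 peaks, and 15.2% when the day 2 peaks counted too. The number of genes was 2825 with 0.5 kb and 3511 with 2.5 kb.

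The HDAC1 difference from regions of all 3 days took either sign: 1.83 points weighted by score, 1.24 by width (-0.217 to 2.70), 1.98 by score within location, 0.844 at gene ends only, -4.03 in bodies and -2.84 outside. The difference from regions of day 4 only stayed positive in the alternatives run, at 5.91 points by score, 6.63 by width, 4.76 by score within location, 7.61 at gene ends only, 7.86 in bodies and 7.72 outside. The gene-end difference from day 4 only was 19.1 points by score, 37.4 with a day 2 overlap of at least 50%, 11.7 with the higher-scoring 50% of each list and 10.2 with equal numbers. That from regions of all 3 days was 9.32 and 9.88 points under the last 2 rules, beyond counting error, and 2.30, 2.96, 3.32 and 3.21 points, with intervals above 0, with no day 6 peak within 1, 2.5, 5 and 10 kb. The same difference was 1.01 points (-1.02 to 3.03) weighted by score and 1.29 points (-0.792 to 3.36) with a day 2 overlap of at least 50%. Both of these intervals hold 0, as in the main result. Under the higher-scoring 50% and equal numbers, the HDAC1 difference was 1.47 and 1.53 points from all 3 days, with intervals that hold 0, and 7.82 and 6.35 points from day 4 only, which was 9.01 points with a day 2 overlap of at least 50%. The weighting by width and by score within location, the longer distances to a day 6 peak, these differences under other rules and the use of day 2 peaks were chosen after seeing the data. The cause of these moves was not tested. No paired analysis was possible because each group has 1 library and no comparison rests on replicates. With 1 library per group and unknown depth, loss of acetylation by day 6 and fewer called peaks cannot be told apart.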

Other observations

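Of 1005 microRNA hairpins in the RefSeq table, 14 overlapped a region of days 2 and 4 only, and none of the 14 regions met an HDAC1 peak, which allows a share of up to 21.4%, above the 13.8% of all such regions. Mir301b lay in a region with scores of 175.61 on day 2 and 359.09 on day 4, beside the gene end of 2610318N02Rik. Mir423, in Nsrp1, lay in a region with 233.22 and 357.26. Mir191, in Dalrd3, lay in a region of score 118.69 on day 2 and 50.43 on day 4, close to the floor of 50. A gene end was within reach (1 kb) of 12 of the 14 regions. These hairpins were named after their values were seen.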
